A study of Mus musculus with 12 samples.

Results

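The genes described here are the enzymes of the tricarboxylic acid (TCA) cycle and of branched-chain amino acid breakdown. The group was set as a list of 42 gene symbols by function, without using a measured value, and all 42 were among the 23955 genes of the count table. They comprise 6 genes of pyruvate entry, 14 of the TCA cycle and 22 of the breakdown of leucine, isoleucine and valine. The libraries came from bought bone marrow mesenchymal stem cells of female C57BL/6 mice, stromal cells able to form fat, at passage 9 to 10. TBT cells were given 50 nM tributyltin, ROSI cells 500 nM rosiglitazone, and DMSO cells the 0.1% solvent alone, with 4 libraries per treatment. Every culture, DMSO included, was also given a fat-inducing mixture with insulin at 5 ug/mL, dexamethasone at 1 uM and isobutylmethylxanthine at 0.5 mM, and was taken at day 14. There is therefore no undifferentiated group here. Nothing in the labels tells if the 4 libraries of a treatment were separate cultures, so p-values measure a spread that may be technical.

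Rosiglitazone is a synthetic ligand of the fat cell receptor PPARγ, and tributyltin is an organotin pollutant that binds PPARγ and its partner receptor RXR. Pyruvate enters the mitochondrial cycle as acetyl-CoA through the pyruvate dehydrogenase complex or as oxaloacetate through pyruvate carboxylase. Citrate synthase joins these products, and the later enzymes oxidise citrate stepwise back to oxaloacetate. Branched-chain amino acids first lose their amino group, then pass an irreversible dehydrogenase complex and end as acetyl-CoA, acetoacetate or propionyl-CoA, which can enter the cycle. Maturing fat cells are known to raise both routes, and part of their citrate leaves the mitochondrion for fatty acid synthesis.

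The promoters of the 4 members with the largest log2 fold changes in any comparison, Bcat2, Bcat1, Aldh6a1 and Dlat, are printed first, because the receptors of both agents are known to act at DNA elements. The sequences are RefSeq promoters of build GRCm38.p6, from 250 bases before to 50 bases after the transcript start, and 38 of the 42 members had an entry. Each is written 5′ to 3′ on the strand of the gene. Bcat2 lies at chr7:45569903-45570202 on the plus strand, Bcat1 at chr6:145076108-145076407, Aldh6a1 at chr12:84450975-84451274 and Dlat at chr9:50659731-50660030, the last 3 on the minus strand. Capitals mark CCAAT boxes (CCAAT, or ATTGG where the box is on the other strand) and GC boxes (GGGCGG).
Bcat2: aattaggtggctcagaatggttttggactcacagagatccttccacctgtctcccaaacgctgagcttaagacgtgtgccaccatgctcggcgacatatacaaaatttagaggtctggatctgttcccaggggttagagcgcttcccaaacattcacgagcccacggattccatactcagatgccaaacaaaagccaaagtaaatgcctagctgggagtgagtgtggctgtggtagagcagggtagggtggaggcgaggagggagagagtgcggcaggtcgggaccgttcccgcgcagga
Bcat1: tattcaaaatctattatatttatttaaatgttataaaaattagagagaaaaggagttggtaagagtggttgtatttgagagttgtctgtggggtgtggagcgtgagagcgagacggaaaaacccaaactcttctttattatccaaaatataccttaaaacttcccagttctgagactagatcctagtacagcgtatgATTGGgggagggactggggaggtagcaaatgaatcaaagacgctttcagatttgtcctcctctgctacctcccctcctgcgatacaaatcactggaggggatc
Aldh6a1: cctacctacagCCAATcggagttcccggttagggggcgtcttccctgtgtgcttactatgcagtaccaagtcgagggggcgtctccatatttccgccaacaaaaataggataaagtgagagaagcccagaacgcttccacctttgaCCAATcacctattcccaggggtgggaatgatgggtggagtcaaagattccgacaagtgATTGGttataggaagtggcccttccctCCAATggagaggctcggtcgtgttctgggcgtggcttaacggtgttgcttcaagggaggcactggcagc
Dlat: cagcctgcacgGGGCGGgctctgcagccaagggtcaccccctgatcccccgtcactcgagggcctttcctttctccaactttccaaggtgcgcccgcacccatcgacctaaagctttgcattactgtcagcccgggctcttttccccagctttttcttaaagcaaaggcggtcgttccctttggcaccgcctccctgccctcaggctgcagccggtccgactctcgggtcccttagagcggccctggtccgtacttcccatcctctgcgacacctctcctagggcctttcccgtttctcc
The Aldh6a1 window held 4 CCAAT boxes, that of Bcat1 held 1, that of Dlat held 1 GC box, and that of Bcat2 held none of the motifs searched. Bcat2, Bcat1 and Aldh6a1 have 2 RefSeq promoters each, and the first listed is printed. The unprinted windows of Bcat1 and Aldh6a1 held the single receptor site AGGTCA described below, and that of Aldh6a1 also held CCAAT boxes. Motifs were searched on both strands, and a match is only a description of these letters. The textbook element of PPARγ and RXR, the receptor site AGGTCA repeated directly with 1 base between the copies, was in 0 of 38 members and in 0.0481% of the 27025 gene symbols of the table. The estrogen-related receptor element TCAAGGTCA was in 0 of 38 members, against 0.466% of all symbols. The single receptor site AGGTCA was in 11 of 38 members, against 18.1% of all symbols, and it is contained in both longer elements. The GC box was in 25 of 38 members, against 38.2% of all symbols, and the CCAAT box was in 25 of 38, against 41.1%. The element of nuclear respiratory factor 1, searched as GCGCA and GCGC with 1 base between them, was in 4 members, Dld, Hibadh, Pccb and Sucla2, against 5.19% of all symbols.

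Libraries held 4027152 to 7474654 counts, and 12323 genes, 41 of the members among them, had enough counts to be tested. Levels are given as CPM, counts per 1000000 of a library size scaled with edgeR's TMM factors. TBT replicate 4 stood apart from the other TBT libraries. Its mean correlation of log2 CPM was 0.953 with its own group and 0.961 with DMSO, while the other TBT libraries correlated at 0.968 to 0.970 with their group and at 0.946 to 0.950 with DMSO. TBT replicates 1 to 3 also had lower values for transcripts rich in G and C. For this, each gene's log2 CPM was taken as a deviation from its mean over the 12 libraries. The median deviation of the fifth of genes with the highest GC was then set against that of the fifth with the lowest. The highest minus the lowest was -0.57, -0.45 and -0.28 in TBT replicates 1 to 3 and 0.10 in TBT replicate 4. It was -0.03 to 0.44 in ROSI libraries and 0.05 to 0.27 in DMSO libraries. The share of counts on the ribosomal RNA gene Rn45s was 0.399 to 0.670% in TBT replicates 1 to 3, 6.85% in TBT replicate 4, 1.36 to 9.27% in ROSI libraries and 2.64 to 6.18% in DMSO libraries. For the members, results without TBT replicate 4, or with a correction for GC, are therefore given where these changed a call.

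With rosiglitazone most of the pathway was higher. In ROSI against DMSO, 29 of the 41 tested members rose and 0 fell, where 10.0% of all tested genes rose and 12.6% fell (edgeR adjusted p below 0.05). The median log2 fold change of the members was 0.60, against 0.01 over all tested genes, and the 12 members without a call also had positive values, 0.12 to 0.81. The count of members that fell was also 0 at an unadjusted p below 0.05 and with DESeq2 or limma. All 6 pyruvate entry genes rose, as did 12 of 14 TCA cycle genes and 11 of 21 tested branched-chain genes. In 30 members all ROSI libraries lay above all DMSO libraries, which held for 13.0% of all tested genes. Leaving out TBT replicate 4 added the calls of Fh1 (log2 fold change 0.43, adjusted p = 0.028), Pcca (log2 fold change 0.38, adjusted p = 0.042), Bckdha (log2 fold change 0.82, adjusted p = 0.042) and Idh2 (log2 fold change 0.39, adjusted p = 0.030). That library is in neither group, and it enters through the shared filter, scaling, estimate of the spread and adjustment. In that fit 12.9% of all tested genes rose and 15.1% fell.

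With tributyltin part of the pathway was higher. In TBT against DMSO, 11 members rose and 1 fell, where 8.22% of all tested genes rose and 7.03% fell, and the members' median log2 fold change was 0.09 against -0.01 over all tested genes. The genes that rose were Pdha1 and Dlat of pyruvate entry, Idh1 and Mdh1 of the cycle list, and Dbt, Auh, Hibch, Hibadh, Acat1, Mut and Aldh6a1 of branched-chain breakdown. Idh1 and Mdh1 encode cytosolic enzymes, and no other gene of the cycle list was called higher with TBT. Hsd17b10 was the gene that fell. Without TBT replicate 4, 16 members rose and 5 fell, all 12 of these calls included, where 16.6% of all tested genes rose and 16.1% fell. Without DMSO replicate 1, 7 members rose, where 4.26% of all tested genes rose and 3.86% fell. Without DMSO replicate 2 likewise 7 rose, where 4.60% of all tested genes rose and 4.08% fell. Hsd17b10 had no call in either case.

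Set directly against each other, TBT cells were lower than ROSI cells. In TBT against ROSI, 0 members were higher and 20 were lower, where 12.8% of all tested genes were higher and 11.1% lower, and the median log2 fold change was -0.33 against 0.02 over all tested genes. The 20 comprised 4 of the 6 pyruvate entry genes, 8 of the 14 cycle genes and 8 of the 21 branched-chain genes. By edgeR at an unadjusted p below 0.05, 0 members were higher in TBT, and DESeq2 and limma also called 0 higher. Without TBT replicate 4, 1 member, Auh, was higher (log2 fold change 0.40, adjusted p = 0.034) and 21 were lower, all 20 of these among them. In that fit 19.9% of all tested genes were higher and 18.3% lower. The comparisons with DMSO share the DMSO libraries, so each one's values are given side by side below and no overlap between them is read.

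**Figure D1:**
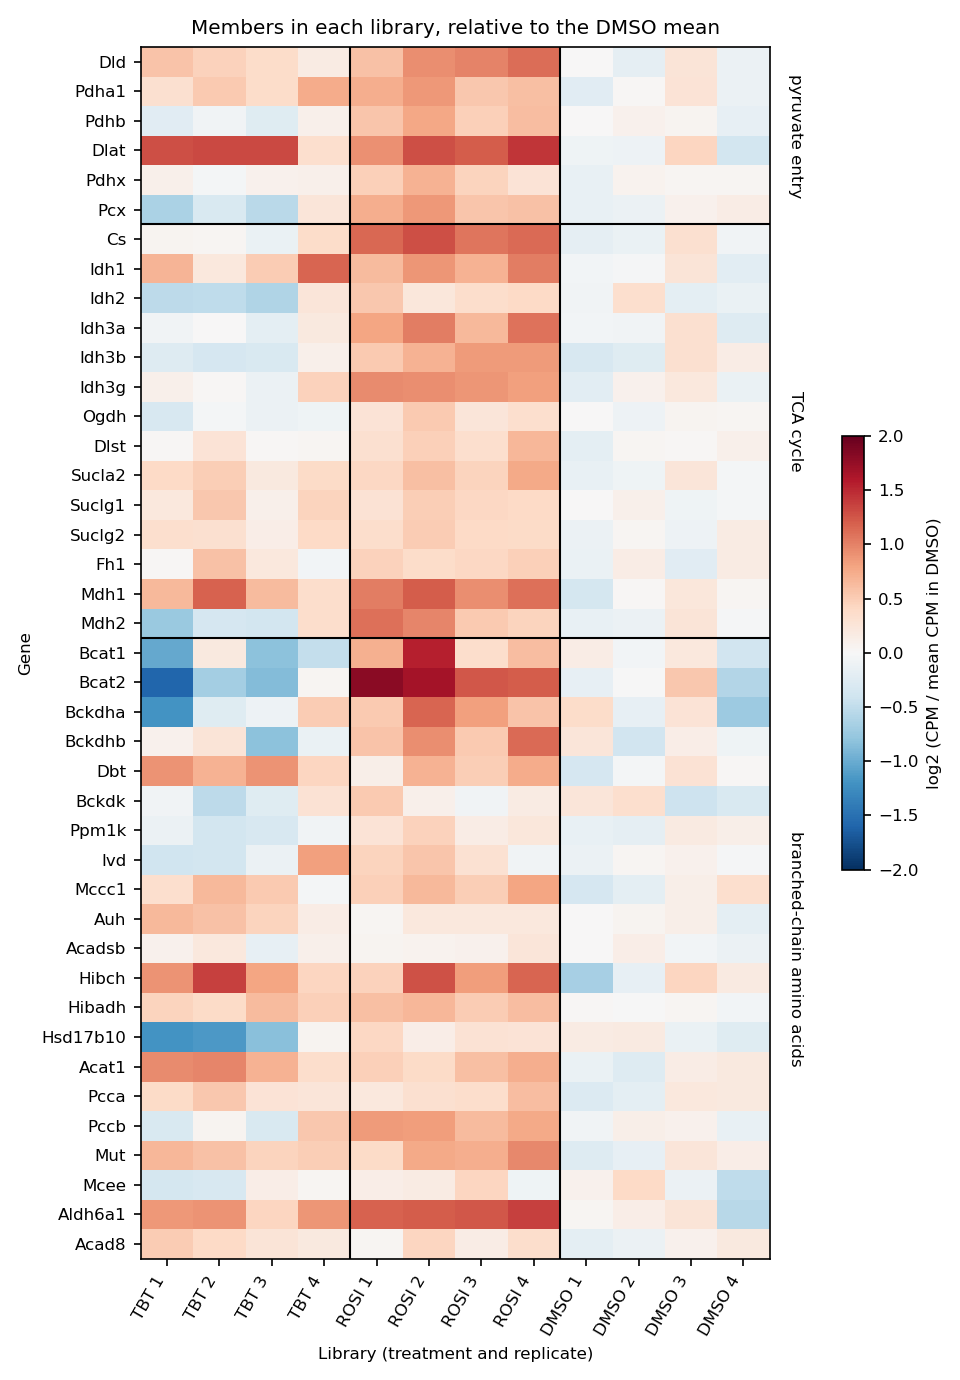
Rows are the 41 tested members, columns the 12 libraries grouped as TBT, ROSI and DMSO; colour is the log2 ratio of a library's CPM to the mean CPM in DMSO, and lines separate treatments and classes. ROSI columns are red in nearly all rows, whereas TBT columns hold red rows such as Dlat, Mdh1 and Aldh6a1 beside blue rows such as Bcat2 and Hsd17b10, with TBT 4 paler or opposite in several rows.

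All 6 genes of pyruvate entry rose with rosiglitazone and 2 of the 6 with tributyltin. Dlat encodes the acetyltransferase core of the pyruvate dehydrogenase complex. It had 286, 295, 295 and 149 CPM in TBT libraries, 222, 287, 272 and 318 CPM in ROSI libraries and 111, 109, 158 and 91.7 CPM in DMSO libraries. TBT replicates 1 to 3 and all ROSI libraries were above every DMSO library, whereas TBT replicate 4 lay within the DMSO range. The log2 fold change of Dlat was 1.22 ± 0.21 (edgeR adjusted p = 3.3e-04) in ROSI against DMSO and 1.12 ± 0.21 (edgeR adjusted p = 0.0025) in TBT against DMSO. With TBT replicate 4 left out the TBT value passed as well (log2 fold change 1.32, adjusted p = 1.2e-05). Between TBT and ROSI, Dlat differed by -0.10 ± 0.20 log2 units (edgeR adjusted p = 0.75).

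Dld, the lipoamide dehydrogenase that the pyruvate, oxoglutarate and branched-chain complexes share, had 289, 267, 249 and 218 CPM in TBT libraries, 291, 371, 387 and 423 CPM in ROSI libraries and 195, 172, 231 and 179 CPM in DMSO libraries. All ROSI libraries were highest, and TBT libraries lay between the groups with an overlap with DMSO through TBT replicate 4 alone. Dld rose by 0.92 ± 0.14 log2 units (edgeR adjusted p = 1.3e-04) in ROSI against DMSO, was lower in TBT against ROSI, at -0.53 ± 0.14 log2 units (edgeR adjusted p = 0.013), and had 0.40 ± 0.14 log2 units (edgeR adjusted p = 0.065) in TBT against DMSO. Without TBT replicate 4 that last value passed the test (log2 fold change 0.48, adjusted p = 0.013), as it did without DMSO replicate 3 (log2 fold change 0.48, adjusted p = 0.044), and it did not with GC-corrected offsets (log2 fold change 0.18, adjusted p = 0.29).

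Of the other subunits of the complex, Pdha1 was called with TBT, and Pdhb and Pdhx were not. Pdha1, the catalytic E1 alpha subunit, rose by 0.69 ± 0.14 log2 units (edgeR adjusted p = 0.0014) with ROSI and by 0.50 ± 0.14 log2 units (edgeR adjusted p = 0.023) with TBT. Its partner Pdhb, the E1 beta subunit, rose by 0.61 ± 0.12 log2 units (edgeR adjusted p = 0.0012) with ROSI, had -0.10 ± 0.12 log2 units (edgeR adjusted p = 0.58) with TBT and was lower in TBT against ROSI, at -0.71 ± 0.12 log2 units (edgeR adjusted p = 4.8e-04). Pdhx, which tethers Dld to the core, rose by 0.48 ± 0.12 log2 units (edgeR adjusted p = 0.0092) with ROSI and had 0.06 ± 0.13 log2 units (edgeR adjusted p = 0.77) with TBT. Pdhx was lower in TBT against ROSI, at -0.42 ± 0.12 log2 units (edgeR adjusted p = 0.023). The TBT call of Pdha1 ended without TBT replicate 2, or DMSO replicate 1, 2 or 4 (log2 fold changes of 0.43 to 0.51 and adjusted p up to 0.080), and with GC-corrected offsets (log2 fold change 0.39, adjusted p = 0.093). Of the exon bases of Pdha1, 16.1% overlap Map3k15 on the other strand, and reads without strand could come from either gene. The TBT against ROSI call of Pdhx ended without TBT replicate 1 or 2, or ROSI replicate 1 or 2 (log2 fold changes of -0.43 to -0.34 and adjusted p up to 0.085).

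Pcx, the pyruvate carboxylase that makes oxaloacetate, had 40.4, 50.6, 43 and 73.7 CPM in TBT libraries, 103, 114, 92.1 and 94.3 CPM in ROSI libraries and 56.3, 57.8, 66.7 and 69.5 CPM in DMSO libraries. The ROSI libraries were above all others, and TBT replicates 1 to 3 were below every DMSO library while TBT replicate 4 was above them all. Pcx rose by 0.69 ± 0.17 log2 units (edgeR adjusted p = 0.0056) in ROSI against DMSO. Pcx was lower in TBT against ROSI, at -0.96 ± 0.17 log2 units (edgeR adjusted p = 6.3e-04). In TBT against DMSO it had -0.27 ± 0.17 log2 units (edgeR adjusted p = 0.27), which became a call of lower without TBT replicate 4 (log2 fold change -0.48, adjusted p = 0.012) and was not one when GC was corrected as well (log2 fold change -0.18, adjusted p = 0.34).

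Citrate synthase, the first enzyme of the cycle, was called higher with ROSI and not with TBT. Cs had 263, 261, 230.0 and 326 CPM in TBT libraries, 560.4, 615, 531 and 551 CPM in ROSI libraries and 222, 231, 317 and 241 CPM in DMSO libraries. Every ROSI library was above every TBT and DMSO library, and TBT and DMSO libraries overlapped. The log2 fold change was 1.16 ± 0.14 (edgeR adjusted p = 1.4e-05) in ROSI against DMSO, 0.09 ± 0.14 (edgeR adjusted p = 0.68) in TBT against DMSO and -1.07 ± 0.14 (edgeR adjusted p = 5.4e-05) in TBT against ROSI. Its close copy Csl held 12 to 62 counts per library against 934 to 4105 for Cs, and how reads shared by copies were counted is not given in the sources used here.

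**Figure D2:**
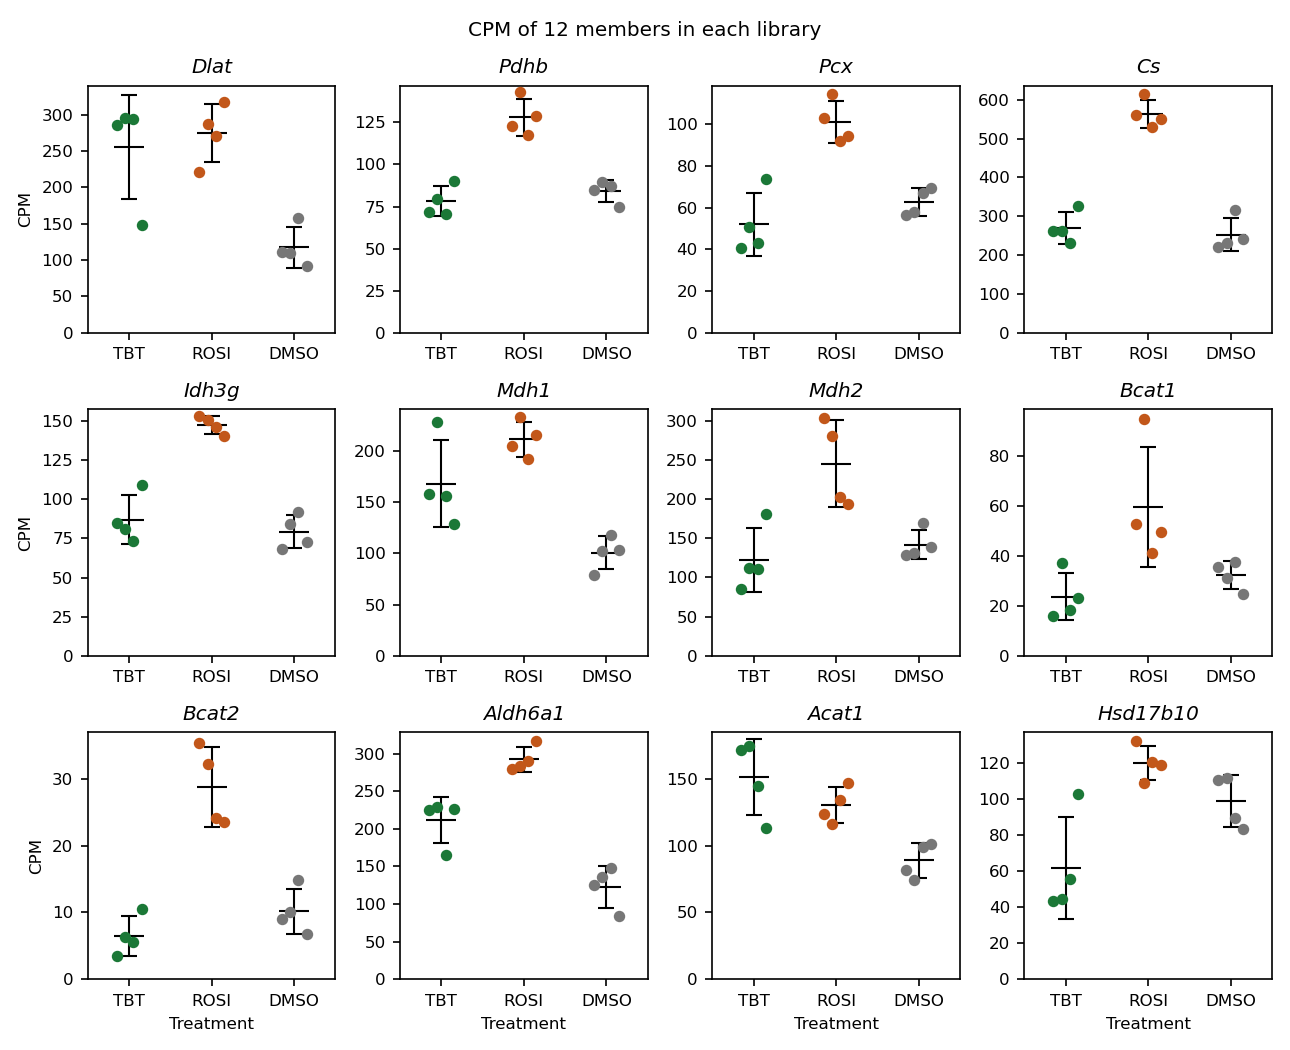
CPM of 12 members in each library, with TBT, ROSI and DMSO from left to right; points are libraries 1 to 4 in order, the horizontal mark is the mean and the bars are ± 1 SD. In Cs, Idh3g and Pdhb the ROSI points lie above all others, Dlat, Mdh1, Aldh6a1 and Acat1 were called higher with TBT as well as ROSI, and TBT 4 is the TBT point nearest to DMSO in Dlat and Hsd17b10.

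Of the 5 isocitrate dehydrogenase genes, 4 rose with ROSI and 1 with TBT. Idh3a, Idh3b and Idh3g form the NAD-dependent enzyme of the cycle, Idh2 is the mitochondrial and Idh1 the cytosolic NADP-dependent enzyme. Idh3g had 84.9, 80.7, 73.2 and 109 CPM in TBT libraries, 153, 150.4, 146 and 140.2 CPM in ROSI libraries and 68.4, 84.2, 91.7 and 72.5 CPM in DMSO libraries. ROSI libraries lay above all others and the TBT and DMSO ranges overlapped. Idh3g rose by 0.89 ± 0.14 log2 units (edgeR adjusted p = 1.2e-04), Idh3a by 0.89 ± 0.15 log2 units (edgeR adjusted p = 2.7e-04) and Idh3b by 0.74 ± 0.15 log2 units (edgeR adjusted p = 0.0020) in ROSI against DMSO. In TBT against DMSO the same 3 genes had log2 fold changes of 0.13 ± 0.14, -0.01 ± 0.15 and -0.19 ± 0.15 with no call. In TBT against ROSI they were lower, at -0.76 ± 0.14 log2 units (edgeR adjusted p = 8.0e-04), -0.90 ± 0.15 log2 units (edgeR adjusted p = 4.0e-04) and -0.92 ± 0.15 log2 units (edgeR adjusted p = 4.7e-04).

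Idh1 rose under both agents, by 0.82 ± 0.17 log2 units (edgeR adjusted p = 0.0023) with ROSI and by 0.68 ± 0.17 log2 units (edgeR adjusted p = 0.016) with TBT, and TBT and ROSI differed by -0.14 ± 0.17 log2 units (edgeR adjusted p = 0.59). The TBT call of Idh1 ended with GC-corrected offsets (log2 fold change 0.54, adjusted p = 0.064). With GC corrected and TBT replicate 4 left out, Idh1 was called lower in TBT against ROSI (log2 fold change -0.55, adjusted p = 0.0040). Idh2 had 0.39 ± 0.18 log2 units (edgeR adjusted p = 0.14) with ROSI and -0.30 ± 0.18 log2 units (edgeR adjusted p = 0.26) with TBT, and was lower in TBT against ROSI (log2 fold change -0.69 ± 0.18, adjusted p = 0.012). Idh2 was also called lower in TBT against DMSO without TBT replicate 4 (log2 fold change -0.52, adjusted p = 0.011), and with GC corrected as well it was not (log2 fold change -0.32, adjusted p = 0.086). The log2 ratio of Idh2 to Idh1 within a library was -2.91 ± 0.22 with TBT, -2.35 ± 0.27 with ROSI and -1.92 ± 0.34 with DMSO (SD, n = 4), lowest in TBT libraries.

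Both members of the oxoglutarate dehydrogenase complex rose with ROSI. Ogdh, its E1 subunit, had 113, 137, 129.8 and 133 CPM in TBT libraries, 170.0, 201, 166 and 178 CPM in ROSI libraries and 141, 131, 147 and 144 CPM in DMSO libraries. ROSI libraries were above all others by a small margin. Ogdh rose by 0.35 ± 0.11 log2 units (edgeR adjusted p = 0.033) in ROSI against DMSO and had -0.14 ± 0.11 log2 units (edgeR adjusted p = 0.43) in TBT against DMSO. Ogdh was lower in TBT against ROSI, at -0.48 ± 0.11 log2 units (edgeR adjusted p = 0.0056). Dlst, its succinyltransferase core, rose by 0.45 ± 0.12 log2 units (edgeR adjusted p = 0.012) with ROSI and had 0.09 ± 0.12 log2 units (edgeR adjusted p = 0.64) with TBT. Dlst was lower in TBT against ROSI, at -0.36 ± 0.12 log2 units (edgeR adjusted p = 0.039). The ROSI call of Ogdh ended without ROSI replicate 2 or 4, or DMSO replicate 1, 2 or 4 (log2 fold changes of 0.29 to 0.37 and adjusted p up to 0.11). The TBT against ROSI call of Dlst ended without TBT replicate 1 or 3, or ROSI replicate 1, 2 or 4 (log2 fold changes of -0.40 to -0.31 and adjusted p up to 0.11).

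Succinyl-CoA synthetase makes succinate and a nucleoside triphosphate. Sucla2, its ADP-forming beta subunit, had 97.8, 104, 84.5 and 96.6 CPM in TBT libraries, 98.8, 112, 101 and 125 CPM in ROSI libraries and 66.5, 69.7, 87.2 and 72.1 CPM in DMSO libraries. ROSI libraries were above all DMSO libraries, and TBT libraries overlapped both groups. Sucla2 rose by 0.56 ± 0.13 log2 units (edgeR adjusted p = 0.0033) in ROSI against DMSO and had 0.37 ± 0.13 log2 units (edgeR adjusted p = 0.056) in TBT against DMSO, which passed without TBT replicate 4 (log2 fold change 0.38, adjusted p = 0.035) or without DMSO replicate 3 (log2 fold change 0.45, adjusted p = 0.036). It did not pass with GC-corrected offsets (log2 fold change 0.20, adjusted p = 0.28), nor with GC corrected and TBT replicate 4 left out (log2 fold change 0.15, adjusted p = 0.39). In TBT against ROSI, Sucla2 had no call (log2 fold change -0.19 ± 0.13, adjusted p = 0.28) and became lower with GC-corrected offsets (log2 fold change -0.36, adjusted p = 0.037). The GDP-forming subunit Suclg2 rose by 0.41 ± 0.11 log2 units (edgeR adjusted p = 0.014) and the shared alpha subunit Suclg1 by 0.40 ± 0.13 log2 units (edgeR adjusted p = 0.030) with ROSI, against 0.30 ± 0.11 and 0.33 ± 0.13 with TBT without a call. The ROSI call of Suclg1 ended without ROSI replicate 2, 3 or 4, or DMSO replicate 1, 3 or 4 (log2 fold changes of 0.38 to 0.42 and adjusted p up to 0.075).

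Fh1, the fumarase, had 32.5, 47.9, 37.2 and 30.9 CPM in TBT libraries, 43.9, 41.1, 42.7 and 44.7 CPM in ROSI libraries and 29.2, 35.6, 27.2 and 36.03 CPM in DMSO libraries. All ROSI libraries were above all DMSO libraries, and the TBT libraries spread over both. Its log2 fold changes were 0.43 ± 0.15 (edgeR adjusted p = 0.051) in ROSI against DMSO, 0.22 ± 0.15 (edgeR adjusted p = 0.34) in TBT against DMSO and -0.21 ± 0.15 (edgeR adjusted p = 0.32) in TBT against ROSI, so it passed in no comparison. The ROSI value passed when TBT replicate 2 was left out (log2 fold change 0.43, adjusted p = 0.027) and also when TBT replicate 4 was (log2 fold change 0.43, adjusted p = 0.028), and with GC-corrected offsets (log2 fold change 0.44, adjusted p = 0.033).

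Both malate dehydrogenases rose with ROSI, and the cytosolic gene rose with TBT. Mdh1, the cytosolic enzyme, had 158, 228, 156 and 129 CPM in TBT libraries, 205, 233, 192 and 215 CPM in ROSI libraries and 78.6, 103, 118 and 104 CPM in DMSO libraries. All TBT and all ROSI libraries were above all DMSO libraries, and TBT and ROSI libraries overlapped. Mdh1 rose by 1.07 ± 0.16 log2 units (edgeR adjusted p = 1.3e-04) in ROSI against DMSO and by 0.73 ± 0.16 log2 units (edgeR adjusted p = 0.0082) in TBT against DMSO. The TBT against ROSI value was -0.33 ± 0.16 log2 units (edgeR adjusted p = 0.14), and it became a call of lower without TBT replicate 2 (log2 fold change -0.52, adjusted p = 0.022). GC-corrected offsets also made it a call of lower, with all libraries (log2 fold change -0.47, adjusted p = 0.030) and without TBT replicate 4 (log2 fold change -0.40, adjusted p = 0.044).

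Mdh2, the mitochondrial enzyme of the cycle, had 84.9, 112, 110.2 and 181 CPM in TBT libraries, 303, 281, 203 and 194 CPM in ROSI libraries and 128, 131, 169 and 139 CPM in DMSO libraries. ROSI libraries were highest, TBT replicates 1 to 3 were below every DMSO library and TBT replicate 4 was above them. Mdh2 rose by 0.79 ± 0.20 log2 units (edgeR adjusted p = 0.0085) in ROSI against DMSO and had -0.22 ± 0.20 log2 units (edgeR adjusted p = 0.48) in TBT against DMSO. Mdh2 was lower in TBT against ROSI, at -1.01 ± 0.20 log2 units (edgeR adjusted p = 0.0020). The TBT against DMSO value was called lower without TBT replicate 4 (log2 fold change -0.46, adjusted p = 0.040), and with GC corrected as well it was not (log2 fold change -0.27, adjusted p = 0.20). The log2 ratio of Mdh2 to Mdh1 was -0.48 ± 0.68 with TBT, 0.19 ± 0.30 with ROSI and 0.50 ± 0.15 with DMSO (SD, n = 4), and it was below 0 in TBT replicates 1 to 3 and at 0.49 in TBT replicate 4.

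**Figure D3:**
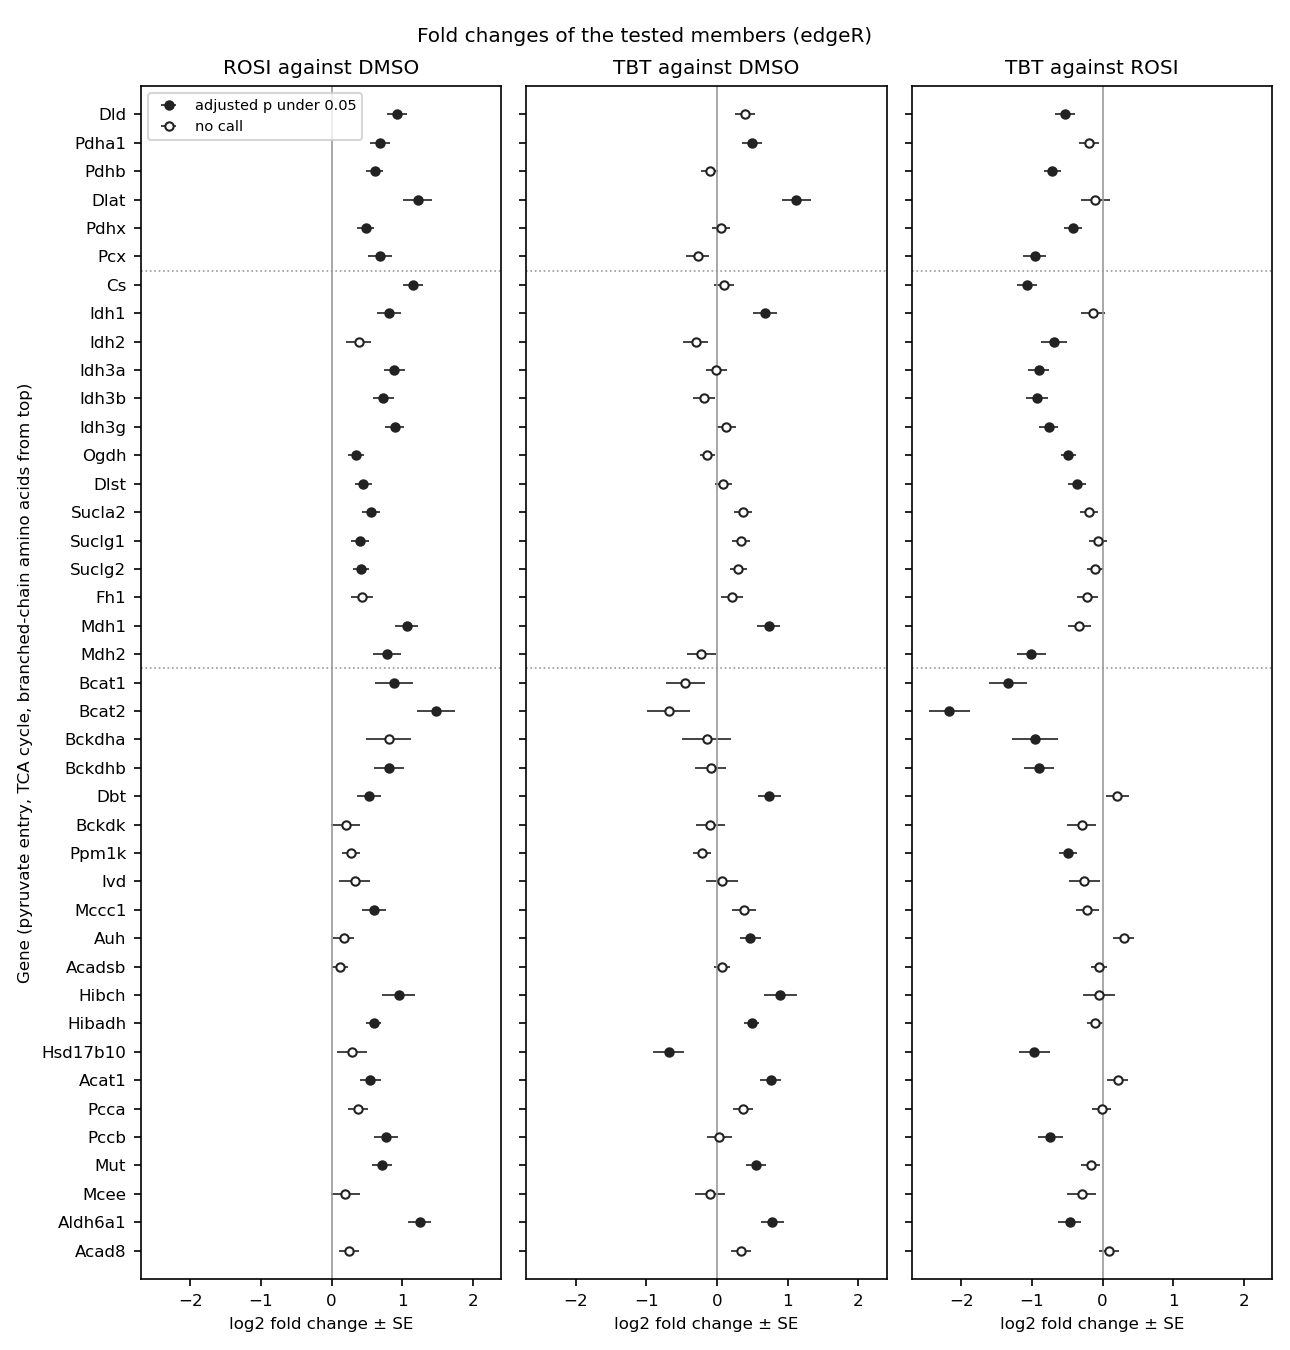
Log2 fold changes with SE (edgeR, n = 4 libraries per group) of the 41 tested members in ROSI against DMSO, TBT against DMSO and TBT against ROSI; filled points are past an adjusted p of 0.05, open points are not, and dotted lines separate pyruvate entry, TCA cycle and branched-chain genes. All points lie right of 0 in the first panel, they lie on both sides in the second, and in the third Bcat2 is farthest left at -2.17.

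The transaminases that start branched-chain breakdown had the largest log2 differences between TBT and ROSI among the 41 tested members. Bcat2, the mitochondrial transaminase, had 3.40, 6.37, 5.56 and 10.4 CPM in TBT libraries, 35.4, 32.2, 24.1 and 23.5 CPM in ROSI libraries and 9.03, 10.1, 14.8 and 6.80 CPM in DMSO libraries. ROSI libraries were far above all others, and 3 of the 4 TBT libraries were below all DMSO libraries. Bcat2 rose by 1.48 ± 0.27 log2 units (edgeR adjusted p = 6.3e-04) in ROSI against DMSO and had -0.69 ± 0.30 log2 units (edgeR adjusted p = 0.13) in TBT against DMSO. Bcat2 was lower in TBT against ROSI, at -2.17 ± 0.29 log2 units (edgeR adjusted p = 5.4e-05). Bcat2 was also called lower in TBT against DMSO without TBT replicate 4 (log2 fold change -1.001, adjusted p = 0.012), and not with GC corrected too (log2 fold change -0.70, adjusted p = 0.066).

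Bcat1, the cytosolic transaminase, had 15.9, 37.1, 18.2 and 23.3 CPM in TBT libraries, 52.7, 94.5, 41.3 and 49.6 CPM in ROSI libraries and 35.6, 31.1, 37.4 and 24.8 CPM in DMSO libraries. All ROSI libraries were above all others, ROSI replicate 2 most, and TBT replicate 2 lay within the DMSO range while the other TBT libraries lay below it. Bcat1 rose by 0.89 ± 0.26 log2 units (edgeR adjusted p = 0.021) in ROSI against DMSO and had -0.45 ± 0.27 log2 units (edgeR adjusted p = 0.26) in TBT against DMSO. Bcat1 was lower in TBT against ROSI, at -1.33 ± 0.27 log2 units (edgeR adjusted p = 0.0020). Its ROSI call ended without ROSI replicate 2, or DMSO replicate 2 or 4 (log2 fold changes of 0.57 to 0.87 and adjusted p up to 0.11). Of the exon bases of Bcat2, 15.9% overlap 0610005C13Rik on the other strand, and the reads carry no strand, so reads of the pair cannot be told apart.

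The branched-chain ketoacid dehydrogenase commits the carbon to oxidation, and of its 5 genes 2 rose with ROSI and 1 with TBT. Dbt, the acyltransferase core, had 115, 99.4, 114 and 83.1 CPM in TBT libraries, 66.9, 100.0, 86.4 and 103 CPM in ROSI libraries and 48.7, 59.9, 75.3 and 62.6 CPM in DMSO libraries. All TBT libraries were above all DMSO libraries, and ROSI libraries overlapped both. Dbt rose by 0.53 ± 0.16 log2 units (edgeR adjusted p = 0.026) in ROSI against DMSO and by 0.74 ± 0.16 log2 units (edgeR adjusted p = 0.0079) in TBT against DMSO, with 0.21 ± 0.16 log2 units (edgeR adjusted p = 0.36) between TBT and ROSI. Its ROSI call ended without ROSI replicate 2 or 4, or DMSO replicate 1, 2 or 4 (log2 fold changes of 0.44 to 0.54 and adjusted p up to 0.091).

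Bckdhb, the E1 beta subunit, rose by 0.81 ± 0.21 log2 units (edgeR adjusted p = 0.0093) with ROSI and had -0.09 ± 0.22 log2 units (edgeR adjusted p = 0.80) with TBT. Bckdhb was lower in TBT against ROSI, at -0.90 ± 0.21 log2 units (edgeR adjusted p = 0.0060). The log2 ratio of Dbt to Bckdhb was 2.59 ± 0.58 with TBT, 1.43 ± 0.18 with ROSI and 1.71 ± 0.40 with DMSO (SD, n = 4), and each TBT library was above every ROSI and DMSO library. Bckdha, the E1 alpha subunit, averaged 3.33 ± 1.48 CPM with TBT, 6.34 ± 1.36 CPM with ROSI and 3.67 ± 1.16 CPM with DMSO (SD, n = 4). In the fit of all 12 libraries its call was in TBT against ROSI, at -0.96 ± 0.33 log2 units (edgeR adjusted p = 0.042), and it ended without TBT replicate 1, 2 or 3, ROSI replicate 1, 2 or 3, or DMSO replicate 2 (log2 fold changes of -1.03 to -0.71 and adjusted p up to 0.14) and with GC-corrected offsets (log2 fold change -0.74, adjusted p = 0.094). Of its exon bases, 61.7% overlap B3gnt8 on the other strand, so its counts may hold reads of that gene.

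The switches of the complex had no call against DMSO in the fit of all 12 libraries. Ppm1k, the phosphatase that activates it, had no call with ROSI (0.27 ± 0.13) or TBT (-0.21 ± 0.13) against DMSO and was lower in TBT against ROSI, at -0.49 ± 0.13 log2 units (edgeR adjusted p = 0.013). That call ended without ROSI replicate 2 (log2 fold change -0.42, adjusted p = 0.050). With GC corrected and TBT replicate 4 left out, Ppm1k was called higher in ROSI against DMSO (log2 fold change 0.33, adjusted p = 0.048). It was then called lower in TBT against DMSO (log2 fold change -0.52, adjusted p = 0.0078). Bckdk, the kinase that inactivates it, passed in no comparison, with log2 fold changes of 0.20, -0.09 and -0.29 in the same order.

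In the leucine branch 1 of 3 tested members rose with each agent. Mccc1, the biotin-carrying subunit of methylcrotonyl-CoA carboxylase, had 48.8, 61.2, 56.05 and 37.8 CPM in TBT libraries, 53.9, 60.7, 54.6 and 67.2 CPM in ROSI libraries and 30.6, 33.9, 42 and 48.8 CPM in DMSO libraries. ROSI libraries were above all DMSO libraries, and TBT libraries overlapped both. Mccc1 rose by 0.60 ± 0.17 log2 units (edgeR adjusted p = 0.016) in ROSI against DMSO and had 0.38 ± 0.17 log2 units (edgeR adjusted p = 0.13) in TBT against DMSO, which passed without TBT replicate 4 (log2 fold change 0.51, adjusted p = 0.019). Its ROSI call ended without DMSO replicate 1 or 2 (log2 fold changes of 0.50 to 0.54 and adjusted p up to 0.060). Mccc2, the other subunit, was the member that had too few counts to be tested, with 0 to 11 counts per library and 0.736 ± 0.963 CPM with TBT, 0.125 ± 0.251 CPM with ROSI and 0.241 ± 0.177 CPM with DMSO (SD, n = 4).

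Auh, the methylglutaconyl-CoA hydratase of leucine breakdown, rose by 0.47 ± 0.15 log2 units (edgeR adjusted p = 0.040) in TBT against DMSO and had 0.17 ± 0.15 log2 units (edgeR adjusted p = 0.47) in ROSI against DMSO. The direct difference of TBT against ROSI was 0.30 ± 0.15 log2 units (edgeR adjusted p = 0.14). Its TBT call ended without TBT replicate 1, 2 or 3, ROSI replicate 3 or 4, or DMSO replicate 1, 2, 3 or 4 (log2 fold changes of 0.41 to 0.50 and adjusted p up to 0.12). Ivd, the isovaleryl-CoA dehydrogenase, passed in no comparison, with log2 fold changes of 0.33 in ROSI against DMSO, 0.07 in TBT against DMSO and -0.26 in TBT against ROSI. Ivd was called lower in TBT against ROSI without TBT replicate 4 (log2 fold change -0.61, adjusted p = 0.0041).

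The isoleucine branch held members that moved in opposite directions with tributyltin. Acat1, the mitochondrial thiolase that ends isoleucine breakdown and also makes acetoacetyl-CoA, had 172, 175, 144 and 114 CPM in TBT libraries, 124, 116, 135 and 147 CPM in ROSI libraries and 81.5, 74.4, 98.8 and 101 CPM in DMSO libraries. All TBT and ROSI libraries were above all DMSO libraries and overlapped each other. Acat1 rose by 0.55 ± 0.15 log2 units (edgeR adjusted p = 0.013) in ROSI against DMSO and by 0.76 ± 0.15 log2 units (edgeR adjusted p = 0.0041) in TBT against DMSO, with 0.21 ± 0.15 log2 units (edgeR adjusted p = 0.31) between TBT and ROSI.

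Hsd17b10, the dehydrogenase of the step before Acat1, had 43.3, 44.4, 55.6 and 103 CPM in TBT libraries, 132, 109, 121 and 119 CPM in ROSI libraries and 110.5, 112, 89.8 and 83.3 CPM in DMSO libraries. TBT replicates 1 to 3 were below every ROSI and DMSO library, and TBT replicate 4 lay within the DMSO range. The log2 fold change was -0.68 ± 0.22 (edgeR adjusted p = 0.043) in TBT against DMSO, 0.28 ± 0.21 (edgeR adjusted p = 0.39) in ROSI against DMSO and -0.97 ± 0.22 (edgeR adjusted p = 0.0044) in TBT against ROSI. The TBT against DMSO call ended without TBT replicate 1, 2 or 3, ROSI replicate 1, 2, 3 or 4, or DMSO replicate 1, 2 or 3 (log2 fold changes of -0.73 to -0.54 and adjusted p up to 0.13). Leaving out TBT replicate 4 made it larger (log2 fold change -1.03, adjusted p = 4.7e-05). Acadsb, the short branched-chain acyl-CoA dehydrogenase, passed in no comparison, with values of -0.05 to 0.12.

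In the valine branch 3 of 4 members rose with each agent. Aldh6a1, the methylmalonate semialdehyde dehydrogenase that ends valine breakdown, had 225, 229.7, 166 and 227 CPM in TBT libraries, 280.1, 284, 290.4 and 317 CPM in ROSI libraries and 126, 136, 147 and 83.4 CPM in DMSO libraries. The groups did not overlap, with ROSI highest, TBT between and DMSO lowest. Aldh6a1 rose by 1.25 ± 0.16 log2 units (edgeR adjusted p = 2.3e-05) in ROSI against DMSO and by 0.78 ± 0.16 log2 units (edgeR adjusted p = 0.0050) in TBT against DMSO. TBT was lower than ROSI, at -0.47 ± 0.16 log2 units (edgeR adjusted p = 0.041). This call ended without TBT replicate 1, 2 or 3, ROSI replicate 1, 2, 3 or 4, or DMSO replicate 1 (log2 fold changes of -0.51 to -0.39 and adjusted p up to 0.12). Of its exon bases, 18.6% overlap Bbof1, and reads without strand could come from either gene.

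Hibch, the hydroxyisobutyryl-CoA hydrolase, rose by 0.95 ± 0.23 log2 units (edgeR adjusted p = 0.0065) with ROSI and by 0.90 ± 0.23 log2 units (edgeR adjusted p = 0.018) with TBT. Hibadh, the next dehydrogenase, rose by 0.60 ± 0.11 log2 units (edgeR adjusted p = 7.2e-04) with ROSI and by 0.49 ± 0.11 log2 units (edgeR adjusted p = 0.0087) with TBT. The TBT call of Hibch ended without TBT replicate 2, or DMSO replicate 1 or 2 (log2 fold changes of 0.71 to 0.85 and adjusted p up to 0.070). Acad8, the isobutyryl-CoA dehydrogenase, had no call, at 0.25 ± 0.14 with ROSI and 0.34 ± 0.14 with TBT. Without TBT replicate 4 the TBT value of Acad8 passed (log2 fold change 0.40, adjusted p = 0.044), and with GC corrected as well it did not (log2 fold change 0.21, adjusted p = 0.27).

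Propionyl-CoA from valine and isoleucine is carboxylated and rearranged to succinyl-CoA. Mut, the methylmalonyl-CoA mutase of the last step, had 172, 164, 149 and 153 CPM in TBT libraries, 142, 184, 179.8 and 211 CPM in ROSI libraries and 91, 97.1, 129 and 119 CPM in DMSO libraries. All TBT and ROSI libraries were above all DMSO libraries and overlapped each other. Mut rose by 0.72 ± 0.14 log2 units (edgeR adjusted p = 0.0012) in ROSI against DMSO and by 0.55 ± 0.14 log2 units (edgeR adjusted p = 0.017) in TBT against DMSO. Its TBT call ended without TBT replicate 1, or DMSO replicate 1 or 2 (log2 fold changes of 0.47 to 0.51 and adjusted p up to 0.062) and with GC-corrected offsets (log2 fold change 0.35, adjusted p = 0.077). Under those offsets Mut was called lower in TBT against ROSI (log2 fold change -0.37, adjusted p = 0.044), where it had no call without them (log2 fold change -0.17 ± 0.14, adjusted p = 0.40).

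Of the carboxylase subunits, Pccb passed with ROSI and Pcca did not. Pccb, the beta subunit, rose by 0.77 ± 0.17 log2 units (edgeR adjusted p = 0.0032) with ROSI and had 0.03 ± 0.18 log2 units (edgeR adjusted p = 0.92) with TBT. Pccb was lower in TBT against ROSI, at -0.74 ± 0.17 log2 units (edgeR adjusted p = 0.0057). Pcca, the biotin-carrying alpha subunit, had 0.38 ± 0.14 log2 units (edgeR adjusted p = 0.063) with ROSI and 0.36 ± 0.14 log2 units (edgeR adjusted p = 0.087) with TBT, and the TBT value passed without TBT replicate 4 (log2 fold change 0.41, adjusted p = 0.036) but not with GC corrected as well (log2 fold change 0.28, adjusted p = 0.12). The ROSI value passed with GC-corrected offsets (log2 fold change 0.39, adjusted p = 0.033). Mcee, the methylmalonyl-CoA epimerase, passed in no comparison, with values of -0.30 to 0.20.

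Per kilobase of transcript, the subunits of a complex stood at different levels. Over all 12 libraries the highest members per kb were Cs, Mdh2, Idh1 and Dld, and the lowest was Bckdha. Within pyruvate dehydrogenase, Dld averaged 100.5 ± 11.8 CPM per kb with TBT, 145 ± 21.9 CPM per kb with ROSI and 76.2 ± 10.3 CPM per kb with DMSO (SD, n = 4), while Pdhx averaged 14.9 ± 0.720 CPM per kb with TBT, 19.97 ± 2.38 CPM per kb with ROSI and 14.3 ± 0.943 CPM per kb with DMSO. Dlat averaged 63.5 ± 17.8 CPM per kb with TBT, 68.04 ± 9.91 CPM per kb with ROSI and 29.1 ± 7.07 CPM per kb with DMSO, so that its mean was above that of Pdhb (51.6 ± 5.88 CPM per kb with TBT, 84.7 ± 7.27 CPM per kb with ROSI and 55.5 ± 4.28 CPM per kb with DMSO) in TBT cells and below it in ROSI and DMSO cells. Of the branched-chain subunits, Dbt averaged 31.2 ± 4.62 CPM per kb with TBT, 27.01 ± 5.01 CPM per kb with ROSI and 18.7 ± 3.31 CPM per kb with DMSO and Bckdhb 11.97 ± 3.47 CPM per kb with TBT, 22.5 ± 4.57 CPM per kb with ROSI and 12.8 ± 2.35 CPM per kb with DMSO. The log2 ratio of Dlat to Pdhb in CPM was 1.67 ± 0.63 with TBT, 1.09 ± 0.20 with ROSI and 0.46 ± 0.27 with DMSO (SD, n = 4), with TBT replicates 1 to 3 above all others and TBT replicate 4 among the DMSO values. The ratio of Pcx to Pdha1, the 2 entry routes of pyruvate, was -2.46 ± 0.20 with TBT, -1.66 ± 0.02 with ROSI and -1.65 ± 0.21 with DMSO, and every TBT library was below every ROSI and DMSO library. These ratios, and those of Idh2 to Idh1, Mdh2 to Mdh1 and Dbt to Bckdhb above, were not tested and were not corrected for GC. Transcript GC was 57.8% for Pcx and 45.5% for Pdha1, 55.4% for Idh2 and 43.8% for Idh1. It was 55.4% for Mdh2 and 45.7% for Mdh1, 42.1% for Dbt and 50.2% for Bckdhb, and 47.2% for Dlat and 47.3% for Pdhb. With GC-corrected offsets the TBT against DMSO log2 fold changes were -0.07 for Pcx and 0.39 for Pdha1.

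**Figure D4:**
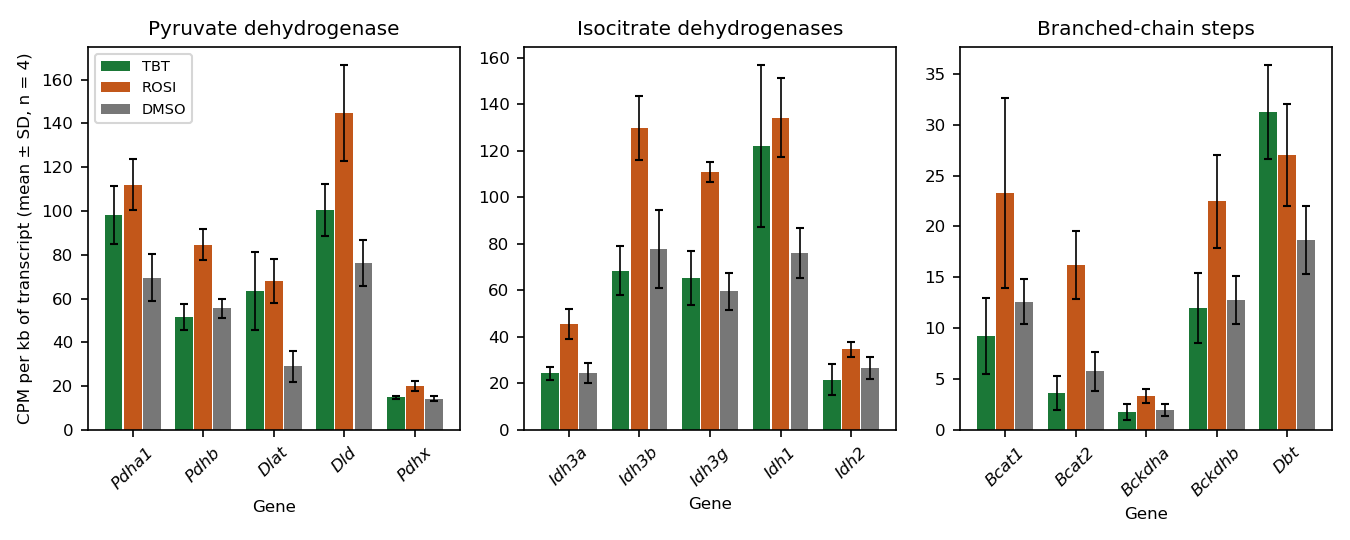
Mean CPM per kb of transcript with SD (n = 4 libraries) for subunits of pyruvate dehydrogenase, the isocitrate dehydrogenases and the first branched-chain steps, in TBT, ROSI and DMSO from left to right. Within pyruvate dehydrogenase only Dlat and Pdha1 were called higher in TBT against DMSO, and Bcat1 and Bcat2 are highest in ROSI.

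Members differed by base composition in the TBT comparisons. The 11 members that rose in TBT against DMSO had a transcript GC of 41.9 to 51.1% with a median of 45.5%, while the 29 without a call had 39.9 to 58.3% with a median of 50.2%. Across the 41 members, Spearman's rho between GC and the TBT against DMSO log2 fold change was -0.67, against -0.31 over 12185 tested genes with a GC value. With GC-corrected offsets, an alternative added after these values were seen, rho was -0.48 across members and 0.00 over all genes. Under these offsets 8 members rose and 1 fell, where 6.51% of all tested genes rose and 6.80% fell. Pdha1, Idh1 and Mut were the members whose calls ended. With TBT replicate 4 left out as well, the correction ended 11 of the 21 calls in TBT against DMSO, those of Idh1, Idh2, Dld, Sucla2, Mdh2, Pdha1, Pcx, Bcat2, Pcca, Mut and Acad8, and added that of Ppm1k, which was lower (log2 fold change -0.52, adjusted p = 0.0078). In TBT against ROSI it then ended the call of Dlst (log2 fold change -0.31, adjusted p = 0.053) and added lower calls of Idh1, Pdha1, Suclg2, Acadsb, Sucla2, Mdh1 and Mut. In ROSI against DMSO rho was -0.02 across members, and with the correction 31 members rose, where 11.0% of all tested genes rose. Members share libraries, so these are descriptions, and the part of GC in the TBT results was not tested otherwise.

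**Figure D5:**
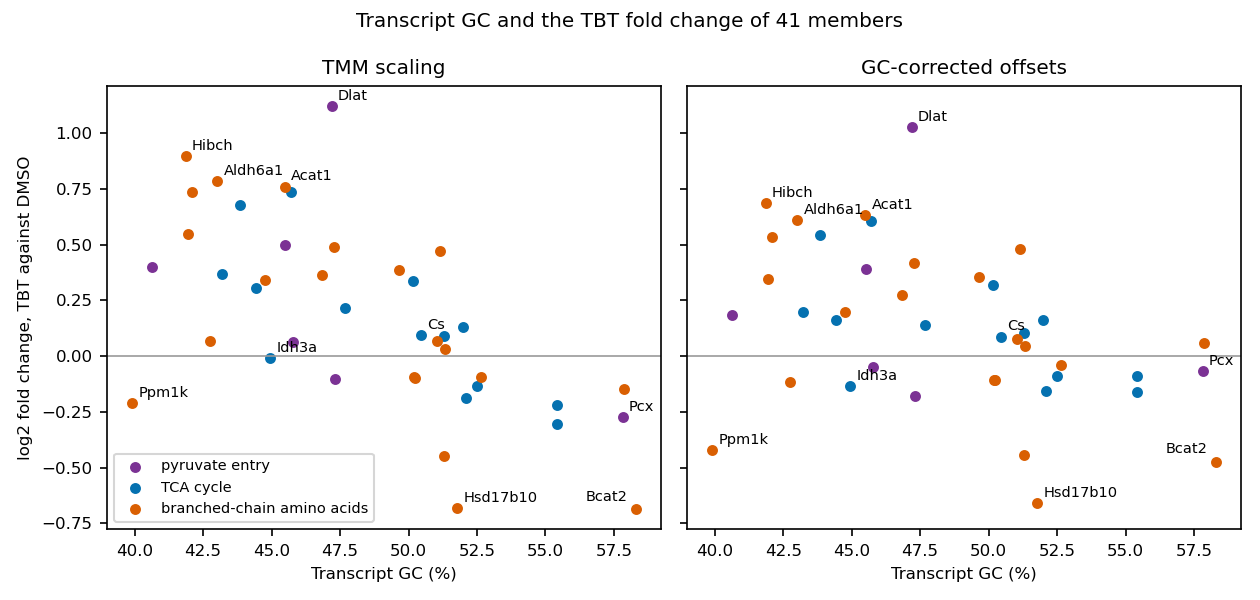
Each point is 1 of the 41 tested members, with transcript GC in percent on the horizontal axis and the log2 fold change in TBT against DMSO on the vertical axis, under TMM scaling on the left and with GC-corrected offsets on the right. High values such as Dlat, Hibch, Aldh6a1 and Acat1 lie below 48% GC in both panels, and Bcat2 and Pcx at the high-GC end move toward 0 with the correction.

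Genes that feed or regulate the pathway were listed by function, with earlier results of these data known. The list held 43 genes, of which 41 were tested. In ROSI against DMSO 19 rose and 3 fell, where 10.0% of all tested genes rose and 12.6% fell. In TBT against DMSO 7 rose and 3 fell, where 8.22% of all tested genes rose and 7.03% fell. In TBT against ROSI 3 were higher and 17 lower, where 12.8% of all tested genes were higher and 11.1% lower. The kinases that switch off pyruvate dehydrogenase were among the largest changes. Pdk4 averaged 375 ± 48.6 CPM with TBT, 398 ± 12.9 CPM with ROSI and 135 ± 39.6 CPM with DMSO (SD, n = 4) and rose by 1.56 ± 0.17 log2 units (edgeR adjusted p = 5.5e-06) with ROSI and by 1.47 ± 0.17 log2 units (edgeR adjusted p = 5.8e-05) with TBT. Pdk1 averaged 213 ± 25.6 CPM with TBT, 229 ± 61.04 CPM with ROSI and 82.1 ± 30.2 CPM with DMSO and rose by 1.48 ± 0.24 log2 units (edgeR adjusted p = 2.3e-04) with ROSI and by 1.38 ± 0.24 log2 units (edgeR adjusted p = 0.0017) with TBT. Pdk2 rose with ROSI by 0.68 ± 0.14 log2 units (edgeR adjusted p = 0.0015) and had 0.23 ± 0.14 with TBT, and Pdk3 passed in no comparison of all 12 libraries, though without DMSO replicate 4 it was called lower in ROSI against DMSO (log2 fold change -0.65, adjusted p = 0.032). With GC-corrected offsets Pdk2 also passed in TBT against DMSO (log2 fold change 0.44, adjusted p = 0.041). In TBT against ROSI Pdk2 was lower (log2 fold change -0.44, edgeR adjusted p = 0.028). That call ended with GC-corrected offsets (log2 fold change -0.22, adjusted p = 0.24), and without TBT replicate 1 or 2, or ROSI replicate 1.

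Both subunits of the carrier that brings pyruvate into mitochondria rose with ROSI. Its subunit Mpc1 rose by 0.93 ± 0.18 log2 units (edgeR adjusted p = 0.0013) with ROSI and by 0.75 ± 0.19 log2 units (edgeR adjusted p = 0.014) with TBT, and Mpc2 rose by 0.91 ± 0.19 log2 units (edgeR adjusted p = 0.0016) with ROSI and had 0.35 ± 0.19 with TBT. Mpc2 was lower in TBT against ROSI, at -0.56 ± 0.18 log2 units (edgeR adjusted p = 0.036). This last call of Mpc2 ended without TBT replicate 1, 2 or 3, or ROSI replicate 1 or 2 (log2 fold changes of -0.57 to -0.39 and adjusted p up to 0.15) and with GC-corrected offsets (log2 fold change -0.47, adjusted p = 0.069). Among cycle genes outside the 42, Sdha, the flavoprotein of succinate dehydrogenase, rose by 0.92 ± 0.15 log2 units (edgeR adjusted p = 2.5e-04) with ROSI and by 0.80 ± 0.15 log2 units (edgeR adjusted p = 0.0028) with TBT.

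Genes that move carbon between the cycle and the cytosol went several ways. Me1, the cytosolic malic enzyme that yields NADPH, rose by 1.21 ± 0.16 log2 units (edgeR adjusted p = 3.4e-05) with ROSI and by 0.53 ± 0.16 log2 units (edgeR adjusted p = 0.036) with TBT. Me3, a mitochondrial malic enzyme of low level (2.27 ± 0.309 CPM with TBT, 0.914 ± 0.372 CPM with ROSI and 4.49 ± 0.985 CPM with DMSO), had log2 fold changes of -2.31 ± 0.36 (edgeR adjusted p = 1.4e-04) with ROSI, -0.96 ± 0.31 (edgeR adjusted p = 0.049) with TBT and 1.35 ± 0.39 (edgeR adjusted p = 0.019) in TBT against ROSI. Acly, which splits exported citrate, had 0.03 ± 0.14 with ROSI, rose by 0.54 ± 0.14 log2 units (edgeR adjusted p = 0.017) with TBT and was higher in TBT against ROSI by 0.51 ± 0.14 log2 units (edgeR adjusted p = 0.015). Got2, the mitochondrial aspartate aminotransferase, was lower in TBT against DMSO, at -0.49 ± 0.12 log2 units (edgeR adjusted p = 0.015). From another list, that of branched-chain amino acid supply and shared steps, Abat, which transaminates GABA, was lower in ROSI against DMSO, at -0.55 ± 0.14 log2 units (edgeR adjusted p = 0.0096). Without TBT replicate 4 Abat was also called lower in TBT against DMSO (edgeR adjusted p = 0.042). Of these, the TBT against DMSO call of Me1 ended without TBT replicate 1 or 2, ROSI replicate 3, or DMSO replicate 1, 2 or 4 (log2 fold changes of 0.41 to 0.54 and adjusted p up to 0.12) and with GC-corrected offsets (log2 fold change 0.45, adjusted p = 0.054). For Me3, that against DMSO ended without TBT replicate 1, 2, 3 or 4, ROSI replicate 1 or 4, or DMSO replicate 1, 2, 3 or 4 (log2 fold changes of -1.06 to -0.82 and adjusted p up to 0.14), and that against ROSI without TBT replicate 1, or ROSI replicate 3 (log2 fold changes of 1.01 to 1.26 and adjusted p up to 0.074). The Acly calls ended without TBT replicate 2 or 3 (log2 fold changes of 0.45 to 0.50 and adjusted p up to 0.058) against DMSO and without TBT replicate 2 or 3 (log2 fold changes of 0.42 to 0.46 and adjusted p up to 0.052) against ROSI, and that of Got2 ended without TBT replicate 1, or DMSO replicate 1 (log2 fold changes of -0.44 to -0.40 and adjusted p up to 0.061).

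Both chains of the plasma membrane carrier of branched-chain amino acids had the group order of the transaminases, with the ROSI mean highest and the TBT mean lowest. Slc7a5, the light chain of the plasma membrane carrier, averaged 34.01 ± 12.1 CPM with TBT, 127 ± 40.1 CPM with ROSI and 49 ± 17.7 CPM with DMSO (SD, n = 4). It rose by 1.38 ± 0.28 log2 units (edgeR adjusted p = 0.0014) with ROSI and had -0.52 ± 0.29 with TBT. Slc7a5 was lower in TBT against ROSI, at -1.91 ± 0.29 log2 units (edgeR adjusted p = 1.7e-04). Its heavy chain Slc3a2 averaged 83.5 ± 16.3 CPM with TBT, 275 ± 66.8 CPM with ROSI and 132 ± 37.2 CPM with DMSO, with log2 fold changes of 1.07 ± 0.21 (edgeR adjusted p = 0.0011) with ROSI, -0.65 ± 0.21 (edgeR adjusted p = 0.044) with TBT and -1.72 ± 0.21 (edgeR adjusted p = 2.8e-05) in TBT against ROSI. Slc25a44, the mitochondrial carrier, rose by 0.41 ± 0.14 log2 units (edgeR adjusted p = 0.036) with ROSI and had 0.24 ± 0.14 with TBT. The TBT against DMSO call of Slc3a2 ended without TBT replicate 1, 2 or 3, ROSI replicate 1 or 3, or DMSO replicate 1, 2 or 3 (log2 fold changes of -0.71 to -0.50 and adjusted p up to 0.15) and with GC-corrected offsets (log2 fold change -0.50, adjusted p = 0.10). The ROSI call of Slc25a44 ended without ROSI replicate 1, 2 or 4, or DMSO replicate 2, 3 or 4 (log2 fold changes of 0.36 to 0.43 and adjusted p up to 0.10).

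Markers of cell types also differed between treatments, and in bulk RNA fewer cells of a type and less RNA per cell cannot be told apart. The summed level of 10 adipocyte markers was 698 to 1025 CPM with TBT, 2071 to 2261 CPM with ROSI and 257 to 735 CPM with DMSO. Of the 9 tested, 7 rose and 1 fell in ROSI against DMSO, where 10.0% of all tested genes rose and 12.6% fell. In TBT against DMSO 2 of the 9 rose and 2 fell, where 8.22% of all tested genes rose and 7.03% fell. In TBT against ROSI 8 of the 9 were lower, where 11.1% of all tested genes were. DMSO replicate 3 had the highest adipocyte sum of its group, 735 CPM against 257 to 369.9 CPM in the others, and the highest sum of the 6 pyruvate entry members, 818 CPM against 634 to 668 CPM. Without it 29 members rose in ROSI against DMSO, where 9.73% of all tested genes rose. Pcca was then called (log2 fold change 0.47, adjusted p = 0.037) and Suclg1 was not (log2 fold change 0.39, adjusted p = 0.065). The 8 stromal progenitor markers summed to 1349 to 1819 CPM with TBT, 759 to 845 CPM with ROSI and 2099 to 2831 CPM with DMSO. Of 7 tested, 3 fell in ROSI against DMSO and 3 in TBT against DMSO, where 12.6% and 7.03% of all tested genes fell. Eng, a common surface marker of mesenchymal stem cells, was near 0 in all groups, 0.198 ± 0.231 CPM with TBT, 0.327 ± 0.299 CPM with ROSI and 0.425 ± 0.400 CPM with DMSO (SD, n = 4).

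Markers of other lineages are given as sums. Osteoblast markers summed to 423 to 613 CPM with TBT, 254 to 394 CPM with ROSI and 643 to 937 CPM with DMSO and smooth muscle markers to 619 to 1076 CPM with TBT, 334 to 383 CPM with ROSI and 705 to 909 CPM with DMSO. Sums were 17.9 to 34.6 CPM with TBT, 18.3 to 30.1 CPM with ROSI and 22.4 to 25.4 CPM with DMSO for macrophage markers, 8.05 to 16.2 CPM with TBT, 11.03 to 12.5 CPM with ROSI and 12.4 to 24.2 CPM with DMSO for erythroid markers and 5.02 to 7.49 CPM with TBT, 2.26 to 4.42 CPM with ROSI and 7.13 to 9.36 CPM with DMSO for endothelial markers. Neutrophil markers summed to at most 1.25 CPM in any library. None of the 50 listed markers in the table was without a count in all 12 libraries. The part of the adipocyte, stromal and other markers in the members' results was not tested.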

How the data were processed

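RNA was measured in 12 libraries by single 50 nt SOLiD reads without strand, after ribosomal RNA removal, per the labels' protocols. The authors deposited raw counts per gene symbol, and a second table of log2 values made by the regularized-log method. The submitters' processing notes name the build mm9, FastQC, SAMtools and DESeq2. The aligner and counter were not given in the sources used here, nor was the annotation. Groups came from the library titles.

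Counts were tested in R 4.3.3 with edgeR 4.0.16: filterByExpr (12323 of 23955 genes kept, minimum count 10), TMM factors, 1 quasi-likelihood fit of all 12 libraries without covariates, and 3 contrasts. P-values were adjusted by Benjamini-Hochberg over all tested genes, with a threshold of 0.05, and a standard error is the log2 fold change over the root of its F statistic. A log2 fold change has the first-named group on top. Values are CPM on TMM-scaled library sizes, mean ± SD over 4 libraries, and depth was 4027152 to 7474654 counts. All pairs of libraries of a group differed by more than counting noise, with a lowest chi-square per degree of freedom of 4.66. The members were listed by function without using a measured value. Earlier results of these data were known when members, lists and tests were chosen.

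Library values are given for members past the threshold with an absolute log2 fold change of at least 1 and for the member with the smallest p in each role. Of the related lists, up to 3 genes per direction and comparison with the smallest p were named, plus Pdk1, Pdk2, Pdk3, Pdk4, Sdha, Mpc1, Mpc2, Slc25a44 and Acly. Hsd17b10 was added after its values were seen, and 2 genes that the rule named are not reported here. Transcript lengths, GC and overlaps came from GENCODE M21 (GRCm38) by symbol, with 1 transcript per gene, so CPM per kb assumes that transcript. Promoters came from RefSeq tables of GRCm38.p6, a later build than that of the counts. GC-corrected offsets subtract from each library a lowess curve (span 0.3) of log2 CPM deviations on GC. Alternatives used DESeq2 1.42.0 and limma 3.58.1 on the deposited log2 values, other scalings and filters, and leaving out each library. The edgeR step was checked on simulated counts.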

Additional observations from a re-analysis of the deposited data

Results flagged for a closer look

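In 9 of 123 sets of 4 libraries, each 1 member in 1 treatment, a library stood apart by Dixon's ratio at the 95% level, where chance marks about 1 in 20 sets. The library was TBT replicate 4 in 4 of the 9. There, Idh2 was at 54.8 CPM against 30.6 to 32.6 CPM in the other TBT libraries, Idh3b at 136 against 100.0 to 105, Ivd at 63.7 against 27.3 to 33.4, and Dlat at 149 against 286 to 295. TBT replicate 2 was apart for Dlst, at 91.3 CPM against 76.8 to 77.6, and for Pdhx, at 34.7 against 38.1 to 38.5. TBT replicate 3 was apart for Aldh6a1, at 166 CPM against 225 to 229.7. ROSI replicate 1 was apart for Auh, at 19.6 CPM against 22.0 to 22.1. DMSO replicate 1 was apart for Pdhx, at 32.3 CPM against 36.7 to 37.4.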

How the results depend on the processing

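Counts of members were within 1.5 times the reported value in ROSI against DMSO (25 to 34 higher, 0 lower) and, for lower calls, in TBT against ROSI (15 to 27) under every alternative run. No log2 fold change of a gene named here reversed while called. In TBT against DMSO, leaving out 1 library gave 7 to 16 members higher and 0 to 5 lower, and 527 to 2093 of all genes higher and 484 to 2031 lower. In TBT against ROSI it gave 0 to 1 members higher, and 949 to 2520 of all genes higher and 783 to 2306 lower. Fitting only the groups compared gave 9 members higher and 0 lower in TBT against DMSO, where 616 of all genes were higher and 583 lower. Without the filter on low counts, 29 members rose and 0 fell in ROSI against DMSO, where 1414 of all genes rose and 2352 fell. GC-corrected offsets without TBT replicate 4 gave 9 members higher and 2 lower in TBT against DMSO, where 1642 of all genes were higher and 1848 lower. In TBT against ROSI they gave 1 member higher and 27 lower, where 2082 of all genes were higher and 2186 lower. The causes were not tested.

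Replicate numbers did not pair the libraries: correlations of same-numbered deviations ran from -0.43 to 0.14, and 1 of 12 libraries correlated best with its own number. With a replicate block, 28 members rose in ROSI against DMSO, where 991 of all genes rose. In TBT against DMSO 9 members rose and 0 fell, where 630 of all genes rose and 530 fell. In TBT against ROSI 16 members were lower, where 1014 of all genes were lower. The block with GC-corrected offsets gave 5 members higher, 0 lower, 539 of all genes higher and 541 lower in TBT against DMSO.

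Low counts limit Mccc2, which had at most 11 in a library, where Mccc1 had 129 to 422. The cause was not tested.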
